A study of Mus musculus with 16 samples.

Results

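The difference between NNK-injected and uninjected A/J mice that all ate selenocystine was measured in lung RNA on 8 arrays, the 4 labelled NNK+SECY and the 4 labelled SECY, out of 16 arrays in the study. The arrays were taken by their titles. NNK is a nitrosamine of tobacco, and female mice of the inbred, lung tumour-prone strain A/J received it as a single intraperitoneal injection, 0.2 mL of saline with NNK at 10 uM. Selenocystine, an amino acid made of a pair of selenocysteines, was fed at 15 ppm for 10 days in an AIN-76 diet whose basal selenium was 0.35 ppm. SECY mice received selenocystine and no NNK. NNK+SECY mice received NNK first, started on selenocystine 3 days later and were killed on day 13 from the injection. A saline injection of the SECY mice is not named. The other 8 mice, Untreated and NNK (4 each), ate no added selenocystine and serve here as the same comparison without it. On each array Cy5 carried the RNA of 1 mouse and Cy3 carried a pool of equal parts of the 4 untreated lungs, so each value is the log2 ratio of that lung over the pool, with no dye swap.

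NNK is activated in lung by cytochrome P450 enzymes to products that methylate and pyridyloxobutylate DNA. The alkyltransferase Mgmt removes methyl groups from guanine, and base excision repair removes methylated bases. Carbonyl reductases turn NNK into an alcohol that is glucuronidated and excreted. DNA damage stabilises the transcription factor p53, which induces cell cycle inhibitors such as Cdkn1a, its own inhibitor Mdm2 and many smaller targets. Selenium compounds such as selenocystine supply selenoproteins and can engage the oxidant sensor NRF2, whose targets include Nqo1, Srxn1 and Txnrd1.

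Between 75.0% and 78.5% of spots on the SECY arrays and 75.7% to 79.3% on the NNK+SECY arrays were well above background in Cy5. SECY 3 stood apart: the mean correlation of its gene values with those of the rest of its group was 0.0389, against 0.288 to 0.394 for the other SECY arrays and 0.458 to 0.566 in NNK+SECY. In the file headers 1 SECY and 1 NNK+SECY array of the same replicate number shared each of the slide codes numbered 5 to 8 here. Whether such a slide held both arrays or was hybridised on separate occasions is not stated in the labels or headers. Deviations from the group means correlated at 0.32, 0.04, −0.10 and −0.12 between the arrays of slides 5 to 8. Differences within slides are thus a description and not those of matched pairs. The SECY arrays were scanned on the same day as Untreated and the NNK+SECY arrays on the same day as NNK, so NNK and the day of scanning cannot be told apart. Liver transcripts were present unevenly: the summed Cy5 signal of the 6 measured liver markers ran from 520 to 14460 in SECY and from 532 to 61950 in NNK+SECY. Albumin (Alb) read −1.61, −1.69, −0.45 and 2.47 on SECY 1 to 4, and −1.98, 1.53, 2.59 and −1.53 on NNK+SECY 1 to 4.

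Few genes separated the groups. Of 21240 genes tested, 2 passed an adjusted p of 0.05 in limma, both higher in NNK+SECY (0.00942% of the genes). At an unadjusted p under 0.05 there were 1304 genes (6.14%), 781 higher and 523 lower. The groups of 4 did not overlap in 590 of 20804 genes with all 8 values (2.84%), 303 higher (1.46%) and 287 lower (1.38%). A random order of the 8 values would separate the groups at close to this share. For a gene named for its small p, groups without overlap are thus a description and not added evidence. The median absolute difference was 0.05 and the median SE 0.07 on the log2 scale. The typical difference was thus smaller than its own error with 4 arrays in each group. Of the 2 genes that passed, only Upk3a moved in the dye that carries the lung RNA.

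Upk3a encodes uroplakin 3a, a membrane protein of the urinary tract lining that also marks a subset of club cells in mouse airways. Its log2 ratios on SECY 1 to 4 were 0.21, 0.57, 0.11 and 0.10. On NNK+SECY 1 to 4 they were 1.06, 0.97, 0.91 and 0.91. The lowest NNK+SECY array thus lay above the highest SECY array, SECY 2. Upk3a rose by 0.72 ± 0.10 (SE, n = 4 arrays per group, adjusted p = 0.034 in limma). The 4 differences within slides were 0.85, 0.40, 0.81 and 0.81, with slide 6 the smallest. The Cy5 signal rose by 0.73 and the Cy3 signal of the pool by 0.01. Upk3a had 1 probe of low signal, with log2 Cy5 values of 6.44 to 6.82 in SECY and 7.20 to 7.48 in NNK+SECY. Under 36 other settings its difference ran from 0.67 to 1.19. The adjusted p of Upk3a rests on the spread pooled over all 16 arrays: it was 0.463 when only the 8 arrays were fitted and 0.266 with the slide as a block, with the same difference. It was between 0.0532 and 0.0746 when 1 Untreated array or one of NNK 2, NNK 3 and NNK 4 was left out, and between 0.128 and 0.178 without any 1 of the NNK+SECY arrays or of SECY 1, SECY 3 and SECY 4.

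Without selenocystine Upk3a was also higher in the NNK group. Upk3a read −0.01, 0.09, −0.08 and 0.10 on the Untreated arrays and 1.06, 0.57, 0.75 and 0.68 on the NNK arrays, a difference of 0.74 ± 0.10 (adjusted p = 0.00396 in limma). Its difference between the NNK effects with and without selenocystine was −0.02 ± 0.15, within 1 SE of 0. The 2 NNK comparisons share no array, though all arrays share the reference pool. In both comparisons the NNK arrays were scanned on 1 day and their controls on the other. NNK and scanning day thus cannot be told apart in either. Upk3a was the 1 gene called in both.

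**Figure D1:**
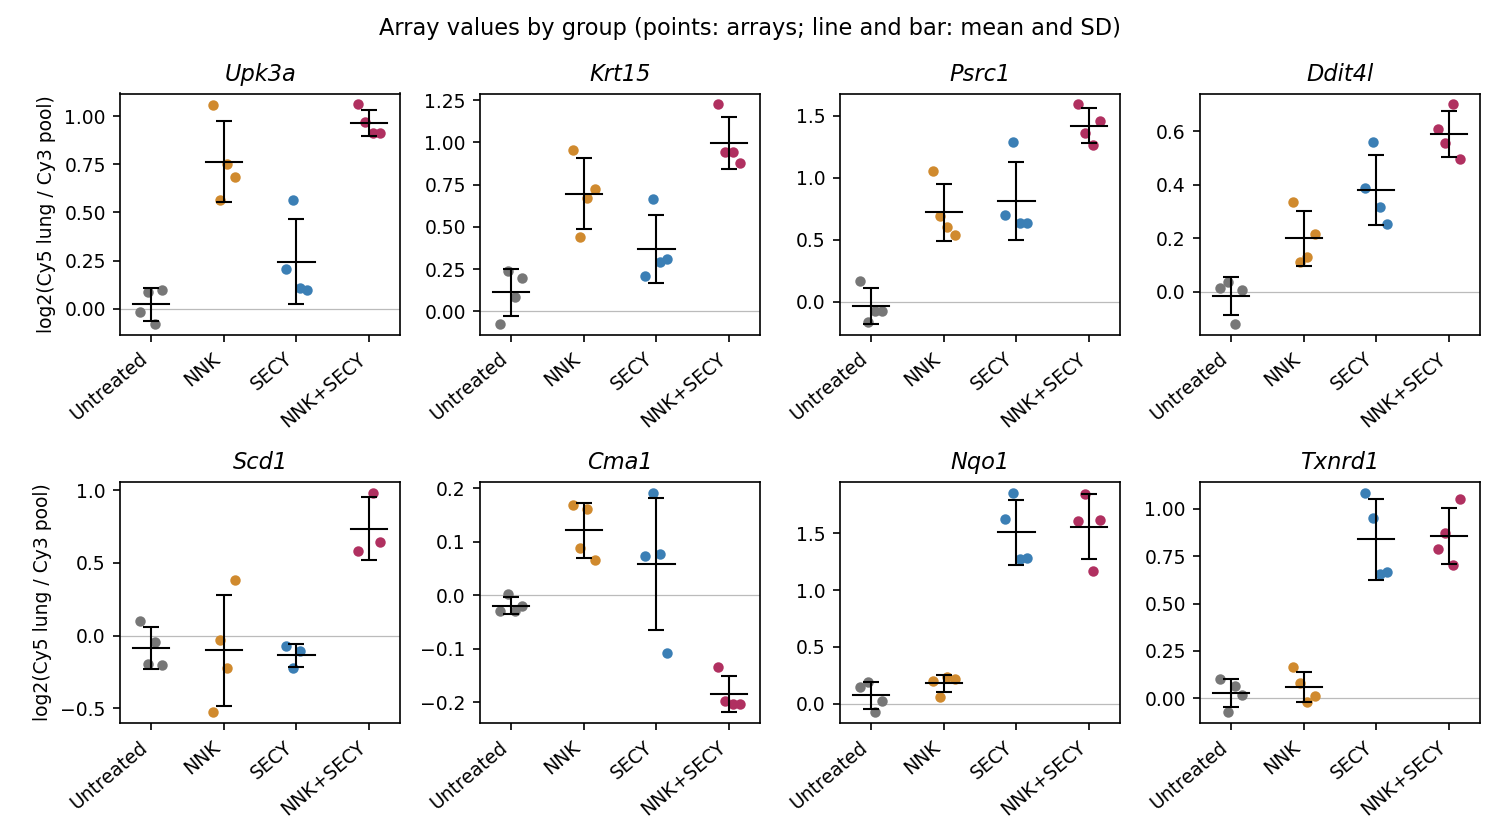
Log2 ratio of lung over pool on each of the 16 arrays for 8 genes, with points for arrays, a line for the group mean and a bar of 1 SD; each panel has its own vertical scale. The 4 NNK+SECY arrays of Upk3a lie at 0.91 to 1.06, above the SECY arrays at 0.10 to 0.57, whereas Nqo1 and Txnrd1 lie at the same height in SECY and NNK+SECY.

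The sequences around the starts of 3 genes are given because Upk3a is the call that lay in the lung RNA and Psrc1 and Ddit4l are the p53 targets with the smallest p in this comparison. Each window runs from 250 bases before to 50 bases after the start in RefSeq (GRCm38.p6), written 5′ to 3′ on the gene's strand. Capitals mark matches to the 10-base decamer consensus of p53, which reads the same on both strands. A single decamer is only a part of a p53 site. Upk3a lies on chromosome 15 (chr15:85016891-85017190, plus strand) and had 1 match, beginning at position −13 from the start. Psrc1 lies on chromosome 3 (chr3:108383554-108383853, plus strand) and had none in either of its 2 listed windows. Ddit4l lies on chromosome 3 (chr3:137623422-137623721, plus strand) and had 1, beginning at position −90.
Upk3a: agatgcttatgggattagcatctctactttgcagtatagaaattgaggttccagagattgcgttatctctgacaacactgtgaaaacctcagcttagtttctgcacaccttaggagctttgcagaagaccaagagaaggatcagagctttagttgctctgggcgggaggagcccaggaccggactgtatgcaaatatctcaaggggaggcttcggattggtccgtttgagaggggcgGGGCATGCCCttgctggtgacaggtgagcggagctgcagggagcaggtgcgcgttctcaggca
Psrc1: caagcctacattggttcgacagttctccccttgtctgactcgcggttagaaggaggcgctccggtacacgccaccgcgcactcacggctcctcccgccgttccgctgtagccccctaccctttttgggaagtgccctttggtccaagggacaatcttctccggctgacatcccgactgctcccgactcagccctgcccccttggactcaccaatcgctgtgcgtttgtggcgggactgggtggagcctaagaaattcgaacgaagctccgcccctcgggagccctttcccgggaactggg
Ddit4l: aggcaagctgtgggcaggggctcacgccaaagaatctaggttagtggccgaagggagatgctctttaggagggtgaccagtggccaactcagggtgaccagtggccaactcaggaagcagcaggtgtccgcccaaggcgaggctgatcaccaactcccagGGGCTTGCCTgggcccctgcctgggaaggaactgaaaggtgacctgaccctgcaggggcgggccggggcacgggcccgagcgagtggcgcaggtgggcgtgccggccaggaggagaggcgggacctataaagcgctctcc
Such a match occurred in 2745 of 32851 promoter windows of the same length (8.36%), in 2582 of 27025 genes (9.55%), and in 15 of the 38 tested p53 targets that had a window. A match is a description of the letters and not of binding.

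Krt15, a keratin of basal epithelial cells, gave the next smallest p among genes with an established name. Its log2 ratios were 0.21, 0.66, 0.29 and 0.31 in SECY and 1.23, 0.94, 0.94 and 0.88 in NNK+SECY, with no overlap. The difference was 0.63 ± 0.11 (SE, n = 4) and did not pass (adjusted p = 0.248 in limma). It lay in Cy5, at 0.63, with 0.003 in Cy3. By Cy5 alone the groups overlapped slightly, since SECY 2 read 8.128 and NNK+SECY 2 read 8.103. NNK against Untreated gave 0.58 ± 0.11 (adjusted p = 0.038 in limma), and the effects differed by 0.04 ± 0.16. Both Upk3a and Krt15 are in the lists for club and secretory cells (16 measured genes) and for basal, squamous and urothelial cells (16). The former list also holds Kdr, a receptor of endothelial cells. The other members did not follow them: the list medians were 0.01 and −0.03, against 0.005 for all genes, with 9 and 5 members above 0. The basal keratin Krt17 differed by −0.09 ± 0.05. Loricrin (Lor), of the cornified layer of skin, read between −0.08 and 0.14 in SECY and 2.85, −0.18, 1.90 and −0.13 in NNK+SECY, so its difference of 1.09 ± 0.46 came from 2 arrays. Among secretory genes Bpifa1, an antimicrobial protein of airway fluid, read −0.21, −0.15 and −0.02 on the 3 measured SECY arrays and −0.47, −0.48, −0.59 and −0.89 on NNK+SECY. This was a difference of −0.48 ± 0.11 (adjusted p = 0.479 in limma), beside −0.43 ± 0.10 for NNK against Untreated. Its relative Bpifb1 gave −0.21 ± 0.09 with overlapping groups. Sftpc and Scgb1a1, the abundant secreted proteins of alveolar type 2 and club cells, were saturated on all 8 arrays, so no fold is given for them.

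Targets of p53 carry the textbook response to DNA damage, and 46 of 48 listed genes were tested. None passed in this comparison, where 0.00942% of all genes did. The median difference was 0.05 against 0.005 for all genes, and 29 members were above 0 (63.0%, against 52.8% of all genes). At an unadjusted p under 0.05, 8 were higher and 1 was lower, beside the background of 3.68% and 2.46% of genes. None had groups that did not overlap, against 2.84% of all genes. The median stayed above 0 under all 37 other settings, at 0.03 to 0.08. In NNK against Untreated the median was 0.07, 36 members were above 0 and 1, Psrc1, passed.

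Psrc1, a microtubule-associated protein of the mitotic spindle that p53 regulates, gave the largest p53 difference. It read 0.70, 1.29, 0.64 and 0.64 on SECY 1 to 4 and 1.59, 1.36, 1.26 and 1.46 on NNK+SECY 1 to 4. SECY 2 lay within the NNK+SECY range, and the other 3 SECY arrays lay far below it. The difference was 0.61 ± 0.14 (adjusted p = 0.485 in limma), with 0.90, 0.08, 0.62 and 0.83 within slides 5 to 8. Without SECY 2 it was 0.76 with an adjusted p of 0.023 in limma. The 2 dimmer probes of Psrc1 gave 0.11 and 0.24, so the probes disagree in size. NNK against Untreated gave 0.76 ± 0.14 (adjusted p = 0.025 in limma) and the effects differed by −0.15 ± 0.20.

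Ddit4l, an inhibitor of mTOR signalling, read 0.39, 0.56, 0.32 and 0.25 in SECY and 0.61, 0.56, 0.70 and 0.49 in NNK+SECY. Its difference of 0.21 ± 0.07 beside 0.22 ± 0.07 without selenocystine was nearly the same, and neither passed. Ccng1, an atypical cyclin, gave 0.27 ± 0.12 and 0.26 ± 0.12 in the same order. Its second probe gave 0.25. Zmat3, an RNA-binding protein, gave 0.18 ± 0.08 and 0.28 ± 0.08. Trp53inp1, a cofactor of p53 in stress, gave 0.36 ± 0.16 and 0.20 ± 0.16. The membrane proteins Perp and Eda2r gave 0.23 ± 0.09 and 0.12 ± 0.05 with selenocystine and 0.01 ± 0.09 and 0.01 ± 0.05 without. A second probe of Eda2r gave −0.02 with selenocystine. For Perp 0.07 lay in Cy5 and −0.16 in Cy3. For Zmat3 0.11 lay in Cy5 and −0.07 in Cy3. The mitochondrial regulator Triap1 was the 1 member lower at an unadjusted p under 0.05, at −0.13 ± 0.06.

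The textbook targets of p53 in arrest and death showed no difference that passed. Cdkn1a, the cell cycle inhibitor p21, read 0.20, 0.75, 0.72 and 0.38 in SECY and 0.35, 1.03, −0.08 and 0.63 in NNK+SECY. The SECY arrays lay inside the range of NNK+SECY, and the difference was −0.03 ± 0.22. NNK+SECY 3 was the low array; without it the difference was 0.16. The ubiquitin ligase Mdm2 gave 0.11 ± 0.07 (−0.02 by Cy5 alone), the AKT inhibitor Phlda3 gave 0.08 ± 0.09, the pore former Bax −0.04 ± 0.07, the secreted stress factor Gdf15 −0.06 ± 0.07 and the leucine sensor Sesn2 −0.08 ± 0.06. For Gdf15 and Sesn2 the sign turned by Cy5 alone (0.09 and 0.35), and that of Bax and of Gdf15 turned with array weights, to values under 0.01.

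**Figure D2:**
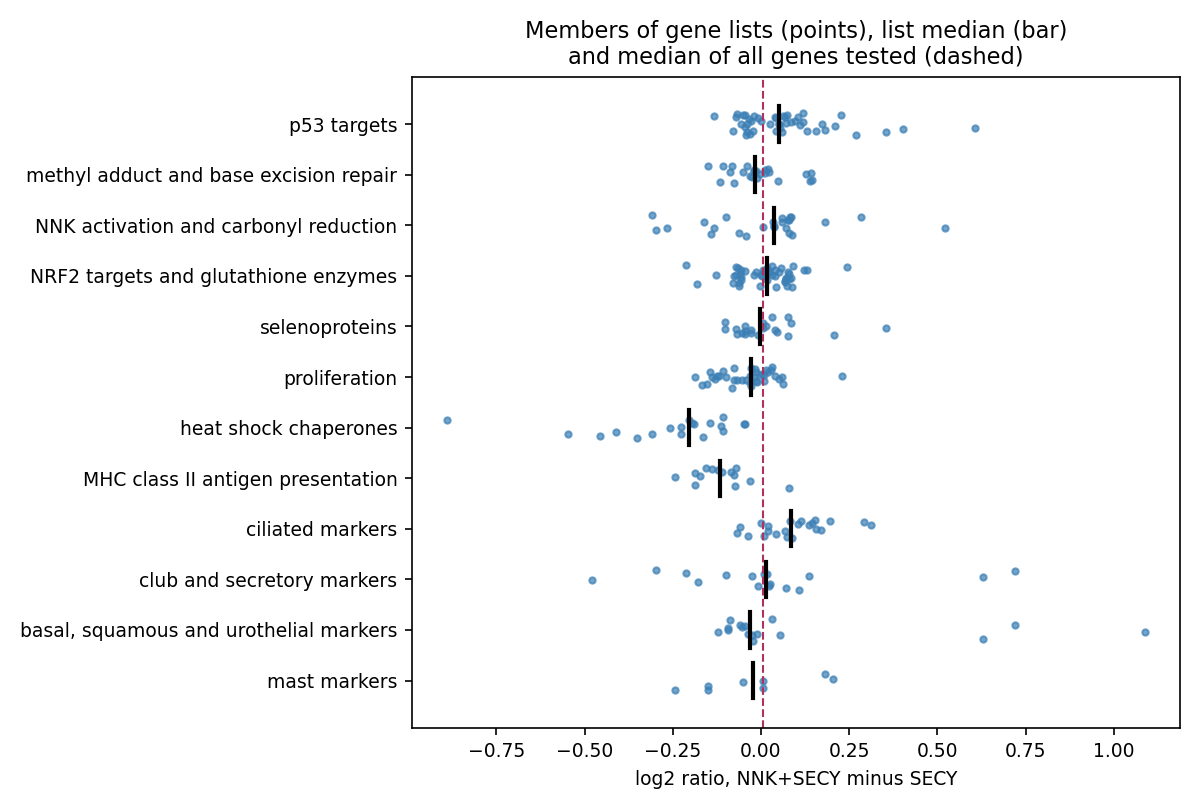
Differences between NNK+SECY and SECY for the members of 12 gene lists, 1 point per gene, with a bar at each list's median and a dashed line at the median of all genes, 0.005. The p53 targets have a median of 0.05 and a tail up to Psrc1 at 0.61, and all 19 heat shock chaperones lie below 0.

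No gene of the repair lists passed the test. Over all genes only 2 of 21240 passed (0.00942%), so a list without a call says little about its members. Of 25 listed genes of methyl adduct and base excision repair, 24 were tested, none passed, and the median was −0.02 with 9 above 0. Mgmt, which removes methyl groups from guanine, gave −0.05 ± 0.06. The glycosylases Ogg1 and Mbd4 gave 0.14 ± 0.05 and 0.14 ± 0.06, and the break sensor Parp2 gave −0.15 ± 0.06. Second probes gave 0.14 for Ogg1, −0.02 for Mbd4 and 0.04 for Parp2, so the signs of Mbd4 and Parp2 depended on the probe. In NNK against Untreated Ogg1 gave 0.14 ± 0.05 as well, Mbd4 −0.09 ± 0.06 and Parp2 0.00 ± 0.06. The 36 other DNA repair genes had a median of 0.01, and none had an unadjusted p under 0.05, against 6.14% of all genes. The 38 proliferation genes had a median of −0.03 with 12 above 0 and none passed.

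Nor did any enzyme that activates or reduces NNK, beside the same 0.00942% of all genes. Among 25 measured genes the median was 0.04 and 16 were above 0. Cyp2a5, an NNK-activating P450, read −0.51, 0.57, 0.18 and 0.94 in SECY and −0.21, 0.56, −0.36 and 0.00 in NNK+SECY. Its difference of −0.30 ± 0.36 was smaller than its SE, which was the widest of the enzymes named here. Cyp2f2, the P450 of club cells, gave −0.10 ± 0.08 with 1 SECY value missing. The carbonyl reductases Cbr1 and Hsd11b1 gave 0.08 ± 0.06 and −0.04 ± 0.11. Cyp2s1, an extrahepatic P450, gave 0.28 ± 0.10 beside 0.27 ± 0.10 for NNK against Untreated, with slide 7 at −0.15 and the other slides at 0.34 to 0.50.

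No NRF2 target or glutathione enzyme passed the test between the selenocystine groups, where 0.00942% of all genes did. The members named whatever their values stood above the pool in both groups. Nqo1, a quinone reductase, read 1.63, 1.85, 1.27 and 1.28 in SECY and 1.6, 1.84, 1.17 and 1.62 in NNK+SECY. The difference was 0.05 ± 0.13. Srxn1, which repairs oxidised peroxiredoxins, averaged 1.42 in both groups and differed by −0.002 ± 0.13. Txnrd1, a selenium-containing thioredoxin reductase, differed by 0.02 ± 0.09. The gut-type glutathione peroxidase Gpx2 averaged 0.96 and 0.97 and differed by 0.006 ± 0.11, and the glutathione transferase Gsta3 differed by 0.09 ± 0.08. The signs of the Nqo1, Srxn1, Txnrd1 and Gpx2 differences turned under some settings. Over 49 NRF2 targets and glutathione enzymes the median was 0.02 with 31 above 0 and none passed. Gsto1, a glutathione transferase of the omega class, gave 0.24 ± 0.07 beside 0.22 ± 0.07 without selenocystine, with 0.12 of the former in Cy5 and −0.13 in Cy3. Gstm2 and the carboxylesterase Ces1g gave −0.21 ± 0.09 and −0.18 ± 0.08, with Ces1g averaging 1.48 in SECY and 1.30 in NNK+SECY. Gstm2 had no value on SECY 2. Of 22 selenoproteins 11 were above 0 with a median of −0.002. Msrb1, a selenium-dependent reductase of methionine sulfoxide, gave 0.21 ± 0.08 with 1 SECY value missing. It was the 1 member with an unadjusted p under 0.05, where 3.68% of all genes were higher at that p.

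The heat shock chaperones differed in 1 direction. All 19 measured members were below 0 (0 of 19 above 0, against 52.8% of all genes), with a median of −0.20 and slide medians of −0.18, −0.12, −0.37 and −0.18. None passed, where 0.00942% of all genes did. None had groups that did not overlap, where 1.38% of all genes were lower without overlap. At an unadjusted p under 0.05, 2 were lower, against 2.46% of all genes. These were Cryab at −0.16 ± 0.06 and the co-chaperone Stip1 at −0.23 ± 0.10. Dnaja1, a partner of HSP70, read −0.25, 0.15, −0.07 and 0.55 in SECY and −0.64, −0.41, −0.65 and 0.25 in NNK+SECY. It was lower on each of the 4 slides, by −0.38, −0.56, −0.58 and −0.30, yet the groups overlapped and the difference of −0.46 ± 0.23 did not pass. The inducible chaperone Hspa1a gave −0.89 ± 0.54, with −2.44 on slide 7 and −0.19 to −0.57 on the others. The constitutive Hspa8 gave −0.41 ± 0.21 and had no value on SECY 2. The list median was below 0 under all 37 other settings, at −0.27 to −0.16. In NNK against Untreated it was −0.17 with 1 member above 0. Both NNK groups were scanned on the other day from their controls, so NNK and scanning day cannot be told apart here either.

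Immune and structural lists showed small shifts without calls. The 14 measured genes of MHC class II presentation had a median of −0.12 and 1 member above 0. The invariant chain Cd74 gave −0.24 ± 0.14 with 1 SECY value missing and H2-DMa gave −0.19 ± 0.08, of which −0.04 lay in Cy5. The slide medians were −0.17, −0.01, −0.42 and 0.06, so slides 6 and 8 were near 0, and the median of NNK against Untreated was 0.04. Of 22 ciliated cell markers 18 were above 0 with a median of 0.08, beside 20 and 0.11 without selenocystine. The tektin Tekt1 gave 0.19 ± 0.09 and the ciliary master regulator Foxj1 0.31 ± 0.17, with 2 SECY values missing. Of 24 cholesterol synthesis genes 20 were above 0 with a median of 0.08, against 12 of them and 0.005 without selenocystine. By Cy5 alone its median was 0.02. The sterol carrier Stard4 gave 0.25 ± 0.08 and the cyclase Lss 0.21 ± 0.08. The 22 measured output and feedback genes of the MAPK pathway had a median of −0.03 with 8 above 0. Its feedback inhibitors Spry1 (0.18 ± 0.07, groups not overlapping) and Spry4 (0.25 ± 0.10) were the only members with an unadjusted p under 0.05. Of all genes 3.68% were higher at that p, and 1.46% were higher without overlap. Without selenocystine Spry1 and Spry4 gave −0.10 ± 0.07 and −0.14 ± 0.10.

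Mast cell genes did not move together. Cma1, the mast cell chymase, read 0.07, 0.19, 0.08 and −0.11 in SECY and −0.13, −0.20, −0.20 and −0.20 in NNK+SECY, a difference of −0.24 ± 0.05 with adjusted p = 0.424 in limma. Without selenocystine it gave 0.14 ± 0.05. A second, dimmer probe of Cma1 gave −0.09 with selenocystine and −0.003 without, so the opposite signs were seen with 1 probe only. The protease Mcpt4 gave −0.15 ± 0.06, but its Cy5 change was −0.004, its Cy3 change 0.14 and its second probe gave 0.03. Hdc, which makes histamine, gave 0.18 ± 0.08. In whole lung fewer cells of a type and less RNA per cell cannot be told apart. Skeletal muscle transcripts were uneven: 12 of 13 were above 0 with a median of 0.32, but the slide medians were 0.77, 0.09, 0.52 and −0.10. The troponin Tnni2 read 0.79 and 1.18 on NNK+SECY 1 and 3 and −0.12 and −0.59 on NNK+SECY 2 and 4, so the arrays with high Lor were those with high Tnni2. The circadian clock genes Dbp, Per2 and Arntl gave −0.10 ± 0.43, −0.07 ± 0.30 and 0.17 ± 0.19, with overlapping groups. Their slide 7 differences were −0.69, −0.65 and 0.60.

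None of the remaining genes with a small p passed, and only their values are given. Scd1, the desaturase that makes oleate, read −0.07, −0.22 and −0.11 on 3 SECY arrays and 0.58, 0.98 and 0.65 on 3 NNK+SECY arrays, with 1 value missing in each group. Its difference was 0.87 ± 0.17 (adjusted p = 0.371 in limma), against −0.01 ± 0.15 without selenocystine. Cavin2, a protein of caveolae, gave 0.59 ± 0.10 from only 1 SECY and 2 NNK+SECY values. P2ry12, a platelet ADP receptor, read −0.19, −0.39, −0.15 and −0.26 in SECY and 0.17, 0.05, 0.07 and 0.12 in NNK+SECY. The difference was 0.35 ± 0.07.

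Oscp1, named as a partner of an organic solute carrier, gave 0.27 ± 0.06 beside 0.25 ± 0.06 without selenocystine, and its groups did not overlap. Ropn1l, a radial spoke protein, gave 0.26 ± 0.06, and Dync2li1, of the dynein that drives transport inside cilia, gave 0.25 ± 0.06. Without selenocystine Ropn1l gave 0.10 ± 0.06 and Dync2li1 0.02 ± 0.06. Dbndd1, Rab36 and Dgkq, a diacylglycerol kinase, gave 0.22 ± 0.05, 0.24 ± 0.05 and 0.19 ± 0.04. The histone methyltransferase Setd1b gave 0.24 ± 0.05. On the lower side were the tendon transcription factor Scx at −0.31 ± 0.07, the zinc finger gene Zfp469 at −0.24 ± 0.06 and the pheromone receptor Vmn1r226 at −0.19 ± 0.04. By Cy5 alone these were −0.16, −0.07 and −0.10. Their lowest adjusted p was 0.40 in limma, and all but Rab36 among these 10 had groups that did not overlap. The 10 genes were chosen for their small p, so separated groups follow largely from that choice and add no support. Without such a choice, groups did not overlap in 590 of 20804 genes (2.84%).

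**Figure D3:**
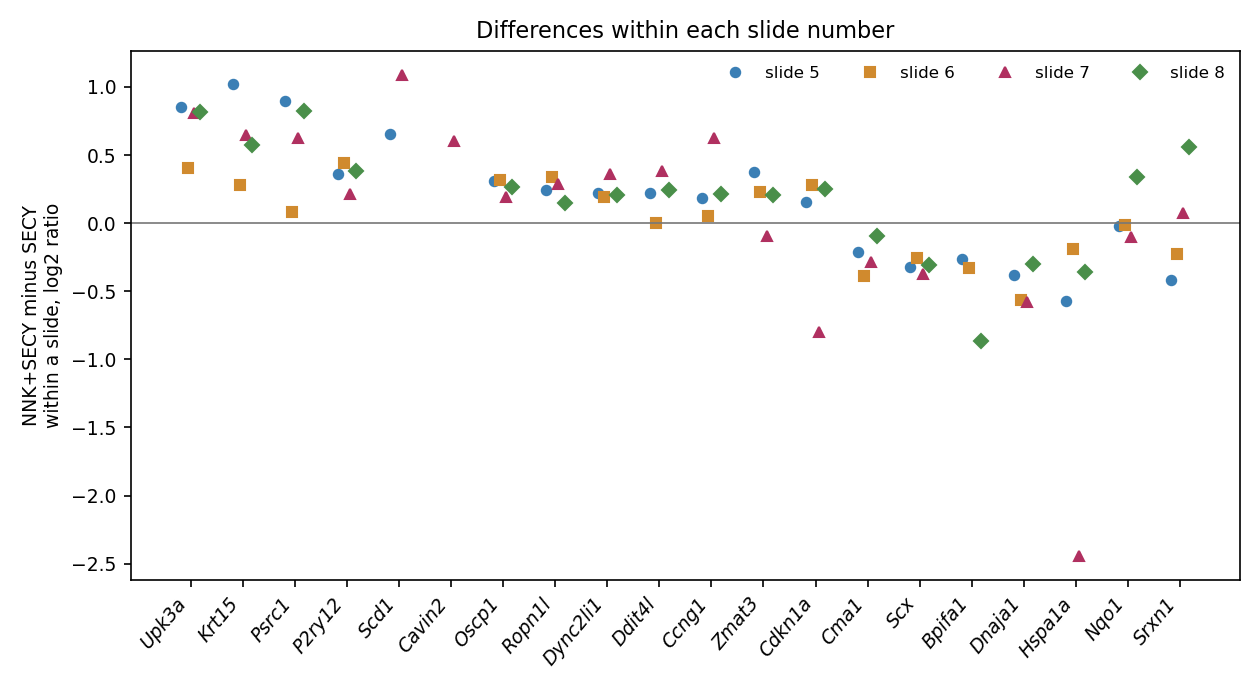
Difference between the NNK+SECY and the SECY array that share a slide number, for 20 genes, with 1 symbol per slide and no symbol where a value was missing. Upk3a, Krt15 and Psrc1 are smallest on slide 6, and Cdkn1a and Hspa1a have their lowest value on slide 7, at −0.80 and −2.44.

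The second call lay in the reference dye. AK081879 is the name of a cDNA clone and has no gene assigned. Its log2 ratios were −1.94, −1.56, −2.00 and −1.78 in SECY and −1.13, −1.19, −1.17 and −1.31 in NNK+SECY, a difference of 0.62 ± 0.09 (adjusted p = 0.034 in limma). The Cy5 signal of the lungs moved by only 0.03, from 6.42 to 6.45. The Cy3 signal moved by −0.59, from 8.24 to 7.65, although Cy3 held the same pool on every array. All 4 Cy3 values of SECY, 7.98 to 8.42, lay above the 4 of NNK+SECY, 7.57 to 7.71. A second probe of the clone gave 0.11. The clone 5031425E22Rik behaved alike, at 0.77 ± 0.13 (adjusted p = 0.216 in limma), of which 0.12 lay in Cy5 and −0.64 in Cy3. Among genes named for their small p, Zfp740 (0.25 ± 0.05) and Plagl1 (0.25 ± 0.06), a zinc finger growth regulator, also had more of their difference in Cy3 (−0.22 and −0.30) than in Cy5 (0.03 and −0.04). So did Zfp469, at 0.17 in Cy3 and −0.07 in Cy5. Vmn1r226 (−0.10 in Cy5, 0.10 in Cy3), Scx (−0.16 and 0.16) and Dgkq (0.09 and −0.09) were split about equally, and Ropn1l had 0.16 in Cy5 and −0.10 in Cy3. The Cy3 means of the groups differed by 0.5 or more in 145 genes (0.683%).

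**Figure D4:**
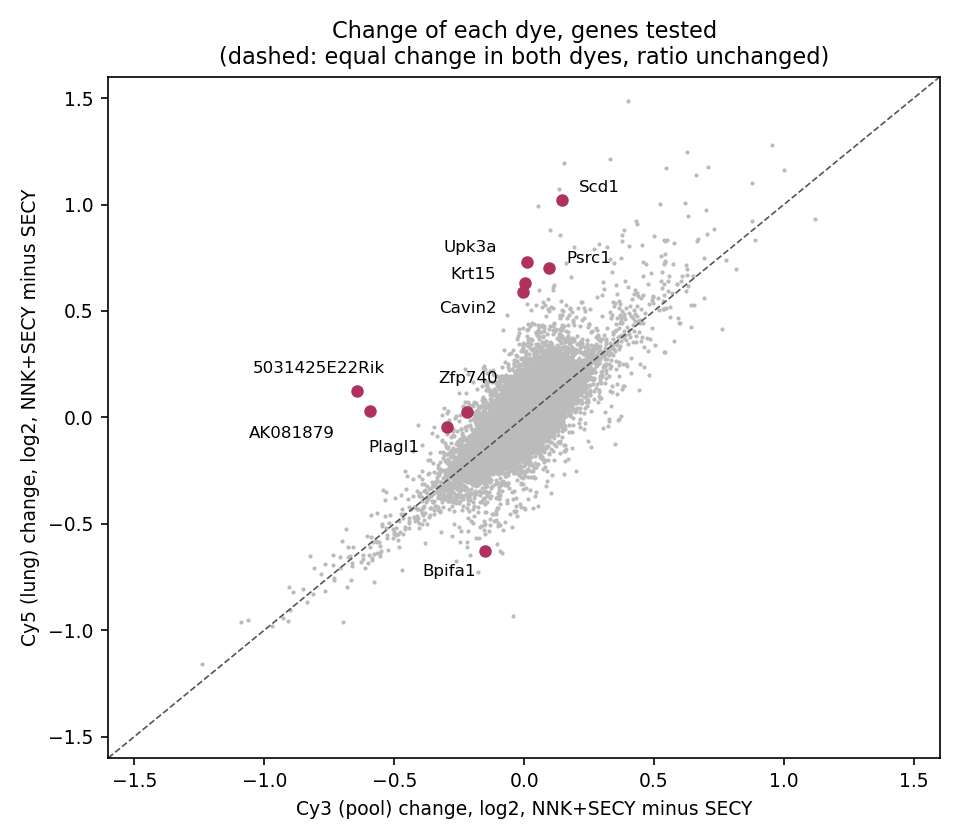
Change of the Cy5 signal (vertical) against change of the Cy3 signal (horizontal) between NNK+SECY and SECY on the log2 scale for the genes tested, with 10 named genes in colour and a dashed line where both dyes changed equally. Upk3a lies at 0.73 in Cy5 and 0.01 in Cy3, and AK081879 at 0.03 in Cy5 and −0.59 in Cy3.

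The NNK effect with selenocystine was then set beside that without it. The interaction, the first difference minus the second, passed for 1 of 21236 genes (0.00471%), with 978 at an unadjusted p under 0.05 (4.61%). That gene was AK081879, at 0.89 ± 0.13 (adjusted p = 0.048 in limma), where NNK against Untreated gave −0.27 ± 0.09. Across 21236 genes the 2 differences had a Pearson r of 0.13 and a Spearman rho of 0.07. These are a description, since genes are not independent replicates and the pool and the scanning days are shared. NNK against Untreated called 68 of 21242 genes (0.32%). Of these 68 genes 63 were above 0 in the selenocystine-fed mice, against 52.8% of all genes. At an unadjusted p under 0.05, 28 were higher there, against 3.68% of all genes. Their median was 0.16 with selenocystine and 0.59 without. The 68 were chosen for passing without selenocystine, which favours large values there. These medians thus do not compare the size of the NNK effects. For 59 of the 68 the Cy3 means of NNK and Untreated differed by 0.5 or more, and their median Cy3 change was 1.26. In the selenocystine-fed groups the median Cy3 change of the same genes was 0.34.

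Of the other genes with a small interaction p, 4 that differed more without selenocystine are given here. The small nucleolar RNA Snord33 gave 0.22 ± 0.10 with selenocystine and 1.14 ± 0.11 without, a difference of −0.92 ± 0.15. The ubiquitin ligase Rnf183 gave 0.20 ± 0.09 and 0.82 ± 0.09, the CREB coactivator Crtc3 0.30 ± 0.11 and 1.03 ± 0.12, and the kinase Pak6 0.23 ± 0.09 and 0.82 ± 0.09. Snord33 and Crtc3 had no value on NNK 1. None of these 4 interactions passed. All 4 genes were among the 68 called in NNK against Untreated, of which 59 differed by 0.5 or more in Cy3. The part of Cy3 in their larger values without selenocystine was not tested. Pak6 moved by 0.76 in Cy5 and by 0.53 in Cy3 between SECY and NNK+SECY, so most of its signal change was shared by the pool.

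**Figure D5:**
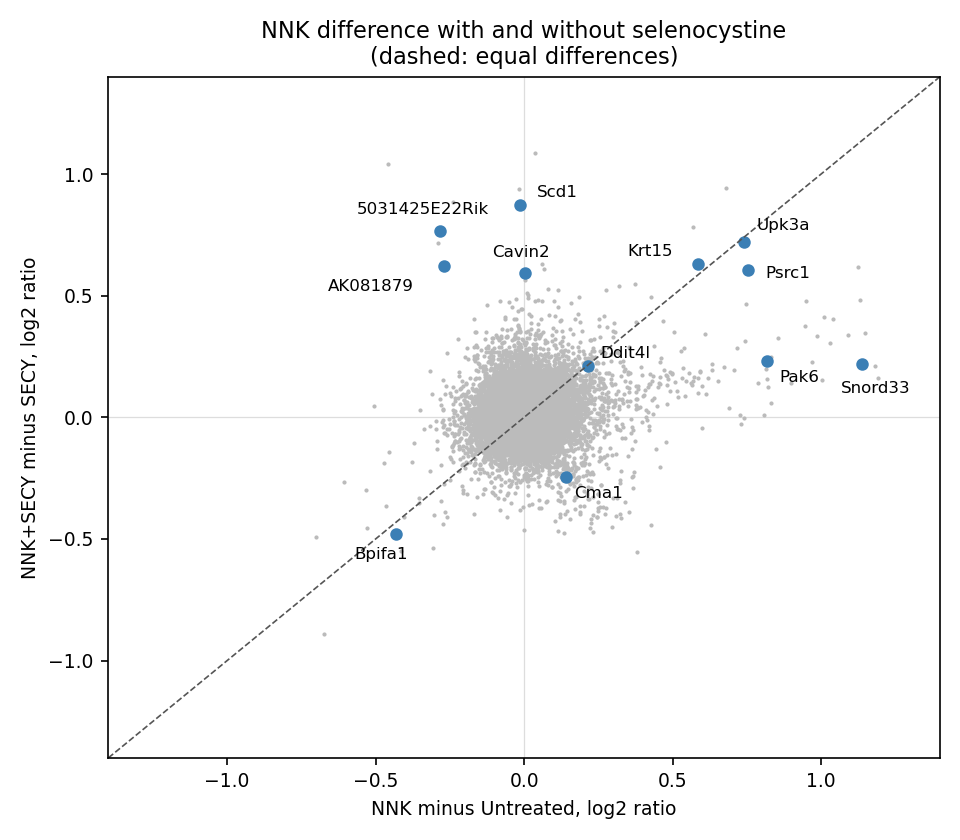
Difference NNK+SECY minus SECY (vertical) against NNK minus Untreated (horizontal), both log2 ratios, for the genes tested, with 12 named genes in colour and a dashed line of equal differences. Upk3a (0.72 and 0.74), Krt15 (0.63 and 0.58) and Ddit4l (0.21 and 0.22) lie near the line, while Snord33 lies at 0.22 and 1.14.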

How the data were processed

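RNA of 16 female A/J mouse lungs was hybridised against a pool of the untreated lungs. Per the file headers, spots were read with Feature Extraction 8.1.1.1. The authors' files give the intensity of each spot and its background for both dyes, on a linear scale, with no normalization. The authors' files also give a log10 ratio (Cy5 over Cy3). Multiplied into log2 units, it matched the authors' deposited log2 value table to 0.005 on all arrays, and the medians of that table's columns were 0. Mice of one group are biological replicates per the labels.

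Mean signals were corrected with normexp (offset 50) and normalized by loess within arrays, with control and flagged spots at weight 0 and flagged values removed. Each gene was represented by its brightest probe. A gene was tested if, in 1 group or more, that probe exceeded background clearly in Cy5 on each of the 4 arrays, which left 21247 of 27703 gene names. Values of a single dye follow loess and Aquantile scaling. Group means over all 16 arrays were fitted in limma 3.58.1 (R 4.3.3) with Benjamini-Hochberg adjustment and a threshold of 0.05, and the script was tested on simulated data. Gene names came from the files and a RefSeq table (22072 probes matched by accession, 6280 by symbol, 4226 by synonym; 8596 kept the file's name). Errors are SE of the model with n = 4 arrays per group, or fewer where values were missing, and the number of arrays limits the precision.

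The comparison, the 42 gene lists and the genes named were chosen with earlier results of these data known, so lists are described by counts and medians and not tested. Genes named are the called ones, the 4 smallest-p members of lists holding a call, 29 genes whatever their values and, since fewer than 5 passed, the 20 with the smallest p (8 for the interaction); not all are printed, and 1 item is not reported here. Others, among them Hspa1a, Spry4, Perp and the clone 5031425E22Rik, were chosen after their values were seen. Alternatives covered background correction, normalization, dye, filters, probes, blocks, weights, thresholds and leaving out each array.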

Additional observations from a re-analysis of the deposited data

Results flagged for a closer look

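For AK081879 the NNK difference with selenocystine exceeded that without it by 0.89 on the log2 scale, the 1 gene whose interaction passed in limma. The difference with selenocystine lay in Cy3, the pool.

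In 9 of 160 groups of 4 arrays looked at, 1 array lay far from the other 3 by Dixon's criterion, where chance alone gives about 1 in 20. Psrc1 on SECY 2 read 1.29, with the other SECY arrays at 0.64 to 0.70. SECY 2 was also the high array for Gpx2 at 1.19 (others 0.88 to 0.91), Rab36 at 0.17 (others 0.003 to 0.02) and Dgkq at 0.0351 (others −0.06 to −0.04). NNK+SECY 2 stood apart for Gsto1 at 0.69 (others 0.49 to 0.51), Bpifb1 at −0.11 (others −0.42 to −0.39), Mgmt at −0.0229 (others −0.12 to −0.11) and Zfp740 at 0.25 (others at 0.27). Cma1 on NNK+SECY 1 read −0.13, against −0.20 on the others.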

How the results depend on the processing

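The 2 calls depended on the setting. None passed with the processed signals, the deposited value table, an offset of 10, Cy3 means within 0.5, the mean of all probes, only the 8 arrays (alone, or with the slide or the replicate block), the slide as a block over all arrays, or tests against a 1.2-fold or 1.5-fold change: 0 genes in each. With Cy5 alone 29 passed (25 higher, 4 lower), of which Upk3a was the 1 also called in the fit reported, and 1 passed with both dyes well above background on all 16 arrays. Leaving out 1 array gave 0 to 7 calls, with 7 without SECY 2 (among them Upk3a, Krt15 and Psrc1), 1 without Untreated 1 or NNK 1, and 0 without any other. For the interaction, against 1 call, 0 passed with the processed signals, the value table, median centring, an offset of 10, no background correction, Cy5 alone, no filter, Cy3 means within 0.5, the mean of probes, the slide as a block and both fold tests. It was 2 with each probe on its own and 2 with the replicate block, and 0 to 3 when 1 array was left out (3 without NNK+SECY 4). The replicate numbers did not pair the samples (correlations of deviations 0.32, 0.04, −0.10 and −0.12), and the replicate block over 16 arrays gave 3 calls for NNK+SECY vs SECY. The cause of these changes was not tested.

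Of 80 genes given, 66 kept their direction in every alternative run. Signs turned by Cy5 alone for Plagl1 (−0.0434), Mdm2 (−0.0169), Gdf15 (0.0861), Sesn2 (0.353), Hsd11b1 (0.0365), Nqo1 (−0.0335) and Txnrd1 (−0.0166). Array weights turned Cdkn1a (0.0661), Bax (0.000564) and Gdf15 (0.0045). Median centring turned Txnrd1 (−0.0167) and Gpx2 (−0.0159). Gpx2 also turned with the processed signals (−0.0145), the value table (−0.0175), an offset of 10 (−0.00956) and no background correction (−0.00020). When 1 array was left out, these genes took both signs: Cdkn1a ranged from −0.212 to 0.159, Srxn1 from −0.0977 to 0.108, Nqo1 from −0.0444 to 0.181, Txnrd1 from −0.0503 to 0.0969, Gpx2 from −0.0856 to 0.113, Hsd11b1 from −0.154 to 0.0448, Dbp from −0.257 to 0.0471, Per2 from −0.270 to 0.0911 and Alb from −0.342 to 1.401.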
